A study of Mus musculus with 10 samples.

Results

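Cholesterol and fatty acid synthesis was followed through 28 genes, of 49315 counted, in cells sorted as microglia from the brains of wild-type C57BL/6 mice. The cells were split by surface CD11c. The 28 are listed by name as genes of both pathways, and no threshold on a measured value chose them. They comprised 21 genes of the sterol arm, from the first steps of the mevalonate pathway to cholesterol together with its controls, and 7 genes of the fatty acid arm. The 10 RNA-seq libraries fell into 4 groups, namely CD11c+ cells at postnatal day 5 (P5, n = 3), CD11c- cells at P5 (n = 3), CD11c+ cells at 9 months (n = 2) and CD11c- cells at 9 months (n = 2). All groups were wild-type and untreated as far as the labels say. Microglia are the resident macrophages of the brain, and CD11c is the integrin alpha X chain. The design sets the CD11c+ cells against the CD11c- cells at each age.

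Cells make cholesterol from acetyl-CoA through mevalonate, farnesyl diphosphate, squalene and lanosterol, and they make fatty acids from the same acetyl-CoA through malonyl-CoA. Both arms are driven by the SREBP transcription factors, with SREBP2 (Srebf2) acting mainly on sterol genes and SREBP1 (Srebf1) mainly on fatty acid genes, and INSIG proteins hold these factors back when sterols are plentiful. In the brain, where lipoproteins of the blood hardly enter, cholesterol is made locally, chiefly by glia, and microglia also take up and export the cholesterol of myelin and dead cells.

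At P5 no gene of either arm passed the test between CD11c+ and CD11c- cells, and 1 shallow CD11c+ library stood apart from the others. At 9 months 7 of the 28 passed. Fdps, Sc5d, Msmo1, Hsd17b7 and Srebf2 were lower in CD11c+ cells, and Lss and Scd2 were higher. Scaled to homeostatic microglia genes, a scale on which all genes had a median log2 fold change of -1.39, Lss (-0.09) and Scd2 (-0.66) had negative values too. Relative to that median they stood at 1.30 and 0.73. Such scaling shifts all genes about alike, so values relative to the median nearly repeat the fold changes behind the 7 calls. The 9-month CD11c- libraries held large amounts of RNA of neutrophils and their precursors, as given below.

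Promoter sequence was available for 22 of the 28 genes, 17 of the sterol arm and 5 of the fatty acid arm, from RefSeq on GRCm38.p6, over windows of 300 bases that run from 250 before to 50 after a gene's start. No window was found for Fdft1, Fdps, Scd1, Scd2, Sqle and Stard4, of which Fdps and Scd2 passed the test at 9 months. The core letters of the sterol regulatory element, TCACNCCA, were found on either strand in 3 of the 17 sterol genes (Hmgcs1, Srebf2 and Msmo1) and in 0 of the 5 fatty acid genes, against 4.97% of all genes with a window and 4.66% of the protein-coding ones. A CCAAT box, bound by NF-Y, a factor known to act with SREBPs, was found in 16 of the 17 sterol genes and 3 of the 5 fatty acid genes, against 41.1% of all genes and 42.3% of protein-coding genes. The last letters of the first motif are the first letters of the second, but their matches shared no base in these windows. The GC box GGGCGG was present in 16 of 17 and in 2 of 5 (38.2% of all genes, 49.2% of protein-coding), and the E-box CACGTG in 4 of 17 and in 0 of 5 (8.09% and 8.91%). Matches are letters only and say nothing of binding.

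The stretches that follow lie before the first annotated transcript start within that window. Hmgcs1 and Srebf2 are shown because they hold the sterol element core, and Sc5d, Hsd17b7 and Lss because they passed the test at 9 months, in opposite directions, with no match to it. Capitals mark TCACNCCA and CCAAT on either strand, so that ATTGG is a CCAAT box read from the other strand.
Hmgcs1 (chr13:119690151-119690350, + strand): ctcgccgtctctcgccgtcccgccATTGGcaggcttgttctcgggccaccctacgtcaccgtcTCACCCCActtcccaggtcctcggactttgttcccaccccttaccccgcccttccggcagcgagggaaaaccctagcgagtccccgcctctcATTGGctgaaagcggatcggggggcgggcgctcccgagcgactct
Srebf2 (chr15:82147069-82147180, + strand): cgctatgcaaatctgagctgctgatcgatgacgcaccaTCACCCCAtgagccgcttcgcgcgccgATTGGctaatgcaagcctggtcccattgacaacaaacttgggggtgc
Sc5d (chr9:42264301-42264500, - strand): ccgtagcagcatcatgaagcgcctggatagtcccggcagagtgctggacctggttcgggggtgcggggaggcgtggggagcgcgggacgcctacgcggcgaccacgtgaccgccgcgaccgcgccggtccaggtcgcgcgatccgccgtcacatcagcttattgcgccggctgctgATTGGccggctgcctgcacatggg
Hsd17b7 (chr1:169969242-169969405, - strand): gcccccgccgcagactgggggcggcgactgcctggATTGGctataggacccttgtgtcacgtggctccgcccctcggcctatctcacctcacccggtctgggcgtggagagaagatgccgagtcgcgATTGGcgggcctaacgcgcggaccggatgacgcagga
Lss (chr10:76531405-76531587, + strand): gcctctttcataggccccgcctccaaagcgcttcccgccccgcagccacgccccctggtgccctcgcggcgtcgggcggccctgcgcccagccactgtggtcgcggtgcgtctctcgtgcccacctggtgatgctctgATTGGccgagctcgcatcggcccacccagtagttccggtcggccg

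Libraries held 11892082 to 25483573 counts, apart from P5 CD11c+ replicate 2 with 2619610. That library stood apart, with 23033 genes at 1 CPM (counts scaled to the library total) or more against 12762 to 14735 in the others. Every one of the 28 genes was detected in all 10 libraries and passed the filter on low counts in each comparison, so none was lost. The lowest was 3 reads of Idi1 in P5 CD11c+ replicate 2. Levels below are scaled CPM, that is CPM divided by a TMM scaling factor fitted within each age, and values of the ages are set side by side without a test. The 9-month libraries are stated to have been amplified with the SMART-Seq v4 kit and the P5 ones are not, so that age and library preparation cannot be told apart. In sorted pools, fewer cells of a type and less RNA per cell cannot be told apart either. Nothing in the labels says that replicates came from separate animals, and the tests see only the spread among these libraries, part of which may be technical.

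**Figure D1:**
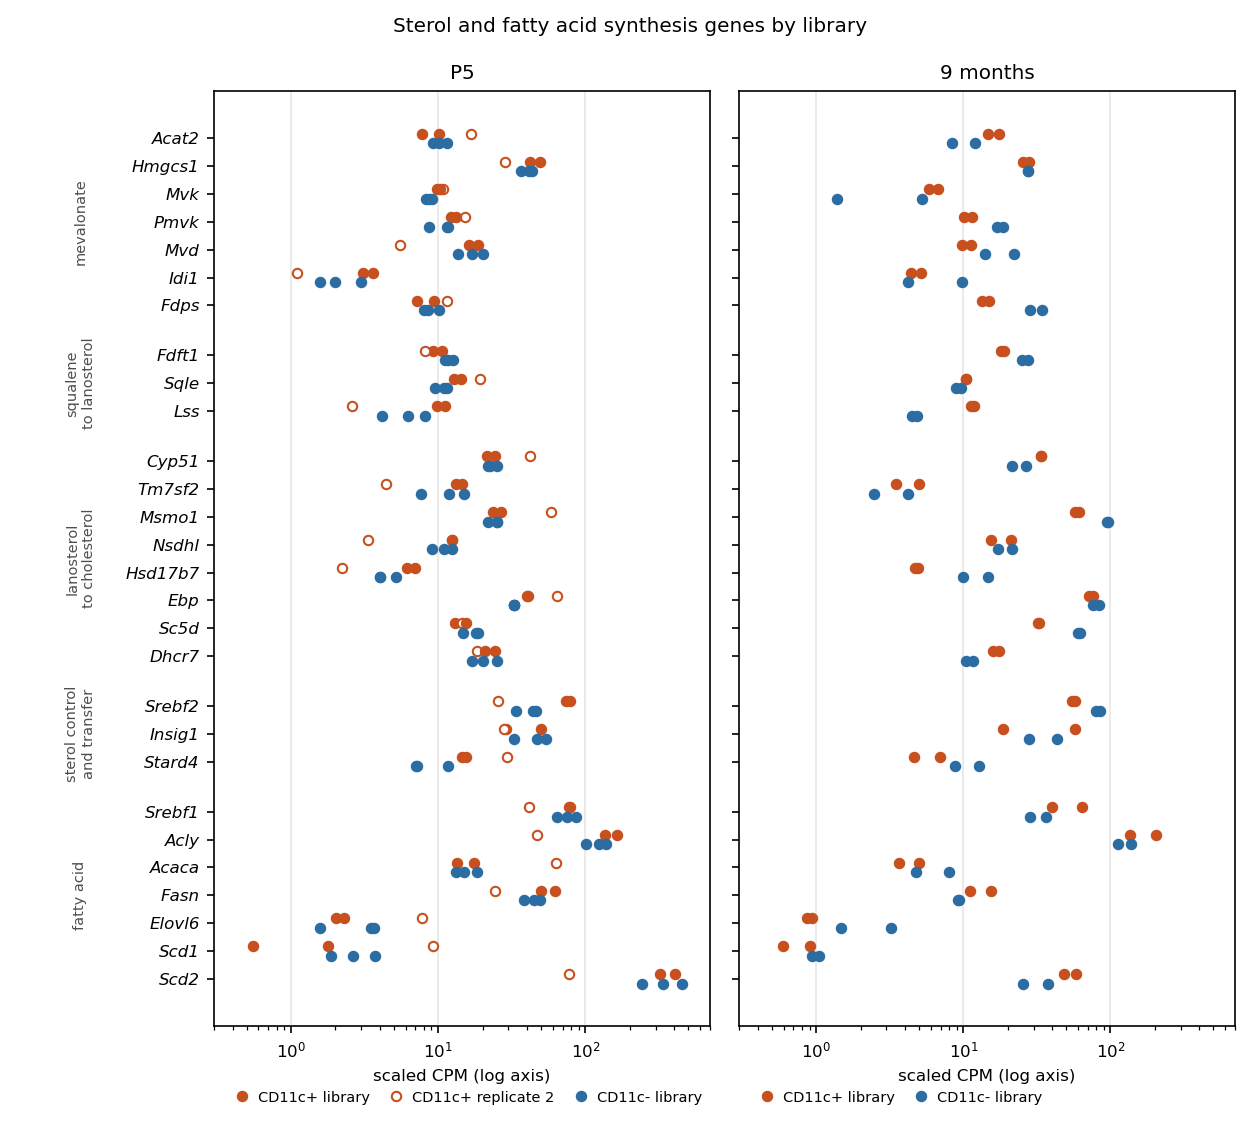
Scaled CPM (log axis) of the 28 genes in each library at P5 (left) and 9 months (right), ordered by step of the pathway, with CD11c+ libraries in orange above CD11c- libraries in blue and P5 CD11c+ replicate 2 as open circles. That replicate lies far from the other CD11c+ libraries for Acaca (63.0), Msmo1 (58.5) and Scd2 (76.9), and at 9 months the groups stand clear of each other for Fdps, Sc5d, Msmo1 and Lss.

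Summed over the 21 genes, the sterol arm stood at 419, 409 and 439 scaled CPM in P5 CD11c+ libraries, against 355, 362 and 379 scaled CPM in P5 CD11c- libraries. Each CD11c+ sum was above each CD11c- sum on this scale, without a test since the genes form a chosen list. In TPM (counts divided by the deposited exon length and scaled to 1 total, with no TMM factor) the P5 sums overlapped, at 393, 170 and 380 in CD11c+ libraries against 299, 180 and 171 in CD11c- libraries, with replicate 2 the lowest of the 6. At 9 months the sums were 452 and 494 scaled CPM in CD11c+ libraries and 589 and 593 scaled CPM in CD11c- libraries, which is the opposite order. That order rests on the measure. On plain CPM the 9-month sums overlapped, at 509.3 and 567.6 in CD11c+ libraries against 549.0 and 488.5 in CD11c- libraries, and in TPM the CD11c+ libraries lay above, at 387 and 429 against 286 and 226. TMM factors over the library totals were 1.13 and 1.15 in the 9-month CD11c+ libraries and 0.932 and 0.824 in the CD11c- ones.

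The 7 fatty acid genes summed to 728, 269 and 602 scaled CPM in P5 CD11c+ libraries, against 704, 620 and 493 in P5 CD11c- libraries, with the value of 269 from replicate 2. At 9 months they summed to 346 and 246 in CD11c+ libraries, against 232 and 183 in CD11c- libraries. The groups overlapped at P5 and did not at 9 months. The ratio of sterol to fatty acid arm, which a scaling of whole libraries does not change, was 1.31 and 2.01 in 9-month CD11c+ libraries against 2.54 and 3.23 in 9-month CD11c- libraries. At P5 it was 0.575, 1.52 and 0.729 in CD11c+ libraries against 0.505, 0.584 and 0.768 in CD11c- libraries. The fatty acid sum was thus a larger part of both arms in the 9-month CD11c+ libraries than in their CD11c- counterparts, while the P5 groups overlapped. Most of that 9-month sum was Acly, which feeds both arms. It had 205 and 136 scaled CPM in CD11c+ libraries against 137 and 113 in CD11c- libraries. Of the 7 genes, 4 had positive and 3 negative fold changes at 9 months, so the sum does not stand for each gene. Scd2 alone gave 28.6% to 64.8% of the fatty acid arm at P5 and 13.8% to 19.8% at 9 months.

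**Figure D2:**
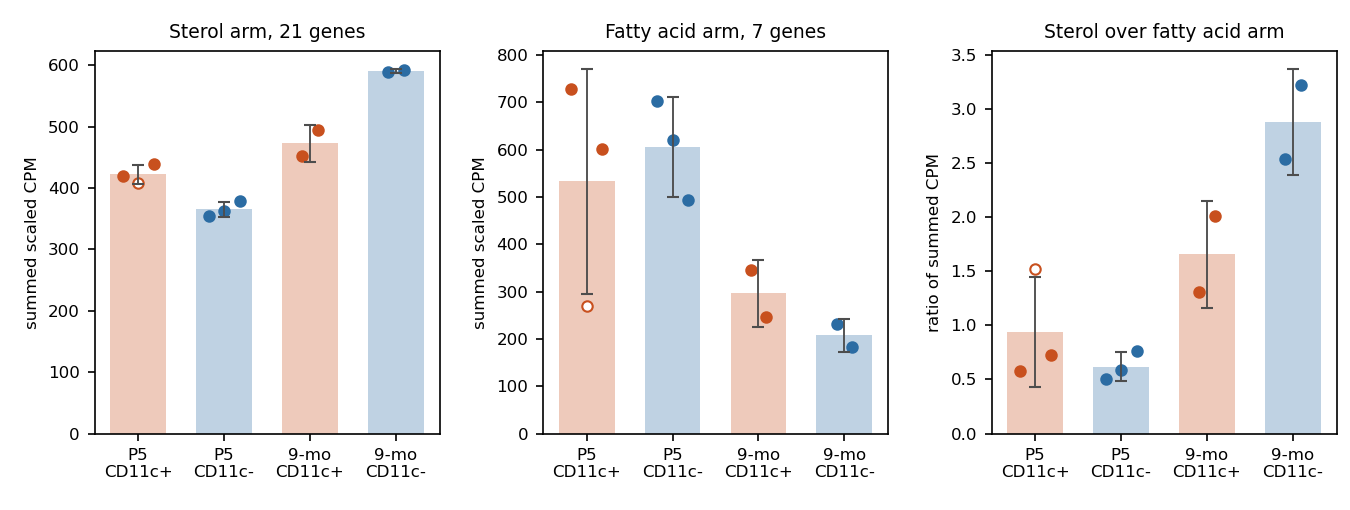
Summed scaled CPM of the sterol arm (left) and the fatty acid arm (middle) and their ratio (right), with 1 point per library, bars at the mean of 3 (P5) or 2 (9 months) libraries and error bars of 1 SD; P5 CD11c+ replicate 2 is the open circle. Sterol sums of 409 to 439 in P5 CD11c+ libraries lie above the 355 to 379 of P5 CD11c- libraries, and those of 452 and 494 at 9 months lie below 589 and 593.

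Per length, in TPM, Scd2 was the highest of the 28 genes at P5, at 148 ± 115 in CD11c+ libraries and 138 ± 92 in CD11c- libraries (SD, n = 3 each). At 9 months Acly and Ebp led in both groups. Acly, the lyase that makes cytosolic acetyl-CoA for both arms, had 97.9 ± 27.6 TPM in CD11c+ libraries and 37.2 ± 11.6 TPM in CD11c- libraries (SD, n = 2 each). Ebp, a sterol isomerase, had 96.5 ± 5.45 TPM in the CD11c+ and 53.7 ± 5.93 TPM in the CD11c- libraries. Among the lowest in all 4 groups were Scd1 and Elovl6, at 0.315 to 1.43 TPM on average. Scd2 lay above Acly, the next below it on average, in every P5 library. In P5 CD11c+ replicate 2 Ebp (41.0 TPM) lay above Scd2 (20.7 TPM). At 9 months Ebp lay above Acly in both CD11c- libraries, and their order differed between the CD11c+ libraries.

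In the P5 comparison 0 of the 28 genes passed edgeR's quasi-likelihood test at an adjusted p under 0.05, where 0.299% of the 15410 genes tested passed as higher and 0% as lower. At an unadjusted p under 0.05 there was 1 (Stard4, higher), where 668 of the 15410 genes were higher and 409 lower. DESeq2 called 0 of 28 (2.56% of genes higher, 1.04% lower). The median log2 fold change of CD11c+ over CD11c- was 0.22 in the sterol arm and 0.05 in the fatty acid arm, against 0.06 over all genes tested, and 14 of 21 and 4 of 7 values were positive. Libraries of the groups did not overlap for 6 genes, with Sqle, Mvk, Pmvk, Ebp and Stard4 above and Fdft1 below in CD11c+ libraries, where 8.39% of all genes lay above and 8.68% below. Without P5 CD11c+ replicate 2, 1 of the 28 passed (Srebf2, higher), where 5.06% of all genes passed as higher and 4.42% as lower. In that fit 4 passed at an unadjusted p under 0.05, where 2069 of 15841 genes were higher and 2314 lower.

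At 9 months 7 of the 28 passed the edgeR test, 2 higher and 5 lower in CD11c+ cells, where 14.8% of the 15740 genes tested passed as higher and 18.2% as lower. The sterol arm held 1 higher and 5 lower of 21, with a median log2 fold change of -0.12, and the fatty acid arm 1 higher of 7, with a median of 0.45, against 0.02 over all genes. Libraries of the groups did not overlap for 9 genes above and 11 below in CD11c+ libraries, of 28, where 36.1% and 33.8% of all genes did so. Of the 28, 7.14% and 17.9% passed as higher and lower and 32.1% and 39.3% did not overlap above and below, so that these shares lay near those of all genes or, for higher calls, under them. In a fit of all 10 libraries, which shares 1 estimate of spread with the P5 libraries, 0 of 28 passed (1.43% of 19555 genes higher, 4.49% lower). Scaled to the summed counts of 15 homeostatic microglia genes in place of TMM, 22 of 28 were lower and 0 higher (63% and 0.457% of all genes), with the median of all genes at -1.39, the sterol arm at -1.53 and the fatty acid arm at -0.98.

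**Figure D3:**
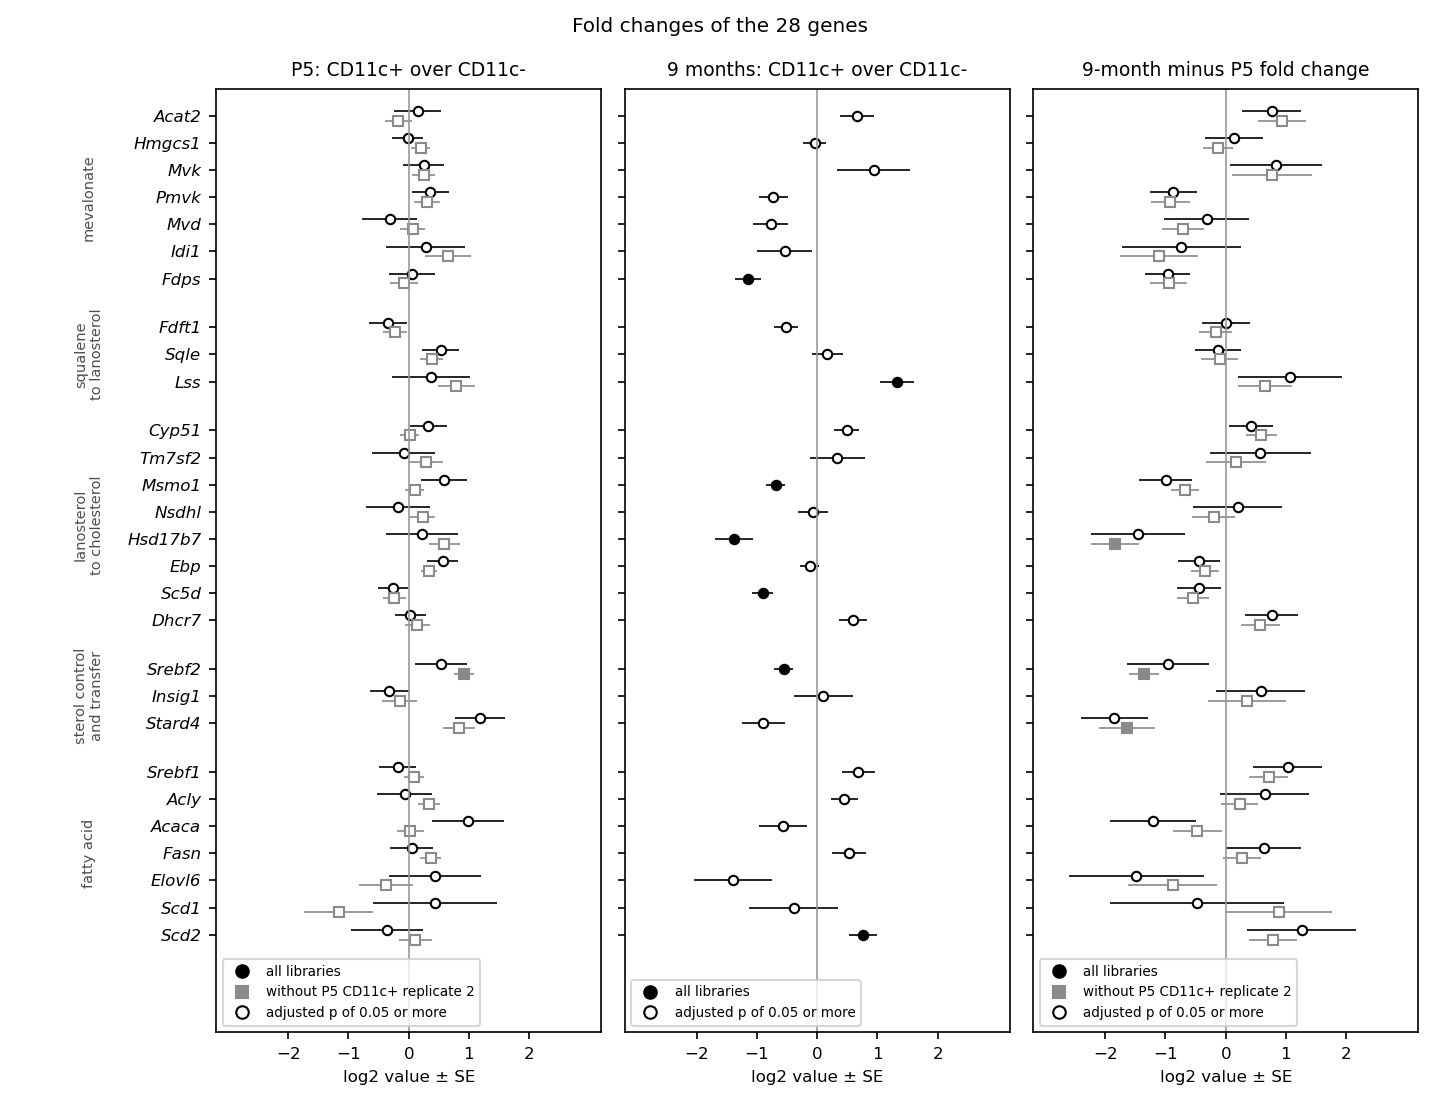
Log2 fold changes ± SE of the 28 genes, CD11c+ over CD11c-, at P5 (left) and 9 months (middle), and their difference, 9 months minus P5 (right), from edgeR; filled marks have an adjusted p under 0.05 and grey squares leave out P5 CD11c+ replicate 2. The 7 filled marks at 9 months run from Hsd17b7 at -1.38 to Lss at 1.33, while P5 has no filled mark with all libraries.

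In the mevalonate steps, which lead from acetyl-CoA to farnesyl diphosphate, 1 of 7 genes passed at 9 months. Fdps (chr3:89093588-89101959), the synthase of farnesyl diphosphate, had 13.3 and 15.0 scaled CPM in 9-month CD11c+ libraries, against 34.2 and 28.4 scaled CPM in CD11c- libraries. Both CD11c+ values were below both CD11c- values, and the gene was lower by a log2 fold change of -1.14 ± 0.214 (SE, adjusted p 0.00757, edgeR). Its P5 levels were 9.35, 11.4 and 7.23 scaled CPM in CD11c+ libraries, against 8.04, 8.52 and 10.2 in CD11c- libraries, and the groups overlapped (0.06 ± 0.381, adjusted p 0.98). Exons of Gm43738 on the same strand cover 26.7% of the exon length of Fdps, so part of its count is uncertain.

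Pmvk (chr3:89454541-89469013), which adds the second phosphate to mevalonate, pointed the same way at 9 months, with 11.4 and 10.1 scaled CPM in CD11c+ libraries against 18.6 and 16.9 in CD11c- libraries. It missed the threshold (-0.73 ± 0.235, adjusted p 0.0532). At P5 its order was the other one, with 12.3, 15.1 and 13.2 scaled CPM in CD11c+ libraries, all above 11.6, 8.60 and 11.4 in CD11c- libraries (0.36 ± 0.306, adjusted p 0.809). Mvd, the decarboxylase after it, had 11.3 and 9.85 scaled CPM in 9-month CD11c+ libraries, below 22.0 and 14.1 in CD11c- libraries (-0.77 ± 0.291, adjusted p 0.0847). At P5 its groups overlapped.

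Hmgcs1 (chr13:119690462-119708086), the synthase that commits acetyl groups to mevalonate and holds the sterol element core shown above, was level at 9 months. It had 28 and 25.4 scaled CPM in CD11c+ libraries, against 27.4 and 27.6 in CD11c- libraries (-0.04 ± 0.189, adjusted p 0.889). The P5 libraries had 49.1, 28.3 and 42.0 scaled CPM in CD11c+ libraries, against 43.7, 36.5 and 41.2 in CD11c- libraries, again overlapping. Mvk, mevalonate kinase, lay above in CD11c+ libraries at both ages, with 9.84, 10.7 and 10.3 against 8.29, 8.60 and 9.12 scaled CPM at P5 and 6.69 and 5.83 against 1.38 and 5.21 at 9 months, without passing (adjusted p 0.869 and 0.279). Its 9-month fold change of 0.94 ± 0.601 leans on the low CD11c- replicate 1. Acat2, a cytosolic acetoacetyl-CoA thiolase, had 17.6 and 14.6 scaled CPM in 9-month CD11c+ libraries against 8.35 and 12 in CD11c- libraries (0.67 ± 0.283, adjusted p 0.117), and overlapped at P5. Idi1, the isomerase of isopentenyl diphosphate, was low throughout, at 1.10 to 9.71 scaled CPM, and its groups overlapped at both ages.

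From farnesyl diphosphate to lanosterol, 1 of 3 genes passed at 9 months. Lss (chr10:76531588-76557138), the cyclase that forms lanosterol, had 11.9 and 11.3 scaled CPM in 9-month CD11c+ libraries, against 4.44 and 4.83 in CD11c- libraries. The groups were well apart, and Lss was higher by 1.33 ± 0.286 (adjusted p 0.0130), although its value was -0.09 (adjusted p 0.815), or 1.30 above the median of all genes, when libraries were scaled to homeostatic microglia genes. At P5 the CD11c+ libraries had 11.2, 2.58 and 9.78 scaled CPM and the CD11c- libraries 8.10, 4.13 and 6.25. Only replicate 2, on 7 reads, lay low, and without it the fold change was 0.79 ± 0.304 (adjusted p 0.143).

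Sqle, the epoxidase that makes squalene epoxide, had 12.9, 19.1 and 14.2 scaled CPM in P5 CD11c+ libraries, all above 9.47, 10.9 and 11.5 in P5 CD11c- libraries. Its fold change was 0.53 ± 0.303 (adjusted p 0.8). At 9 months its values were close, at 10.5 and 10.4 in CD11c+ libraries, against 9.64 and 8.94 in CD11c- libraries (0.17 ± 0.260, adjusted p 0.654). Fdft1, squalene synthase, lay below in CD11c+ libraries at both ages, with 9.23, 8.10 and 10.6 against 12.7, 11.1 and 11.7 scaled CPM at P5, and 19.0 and 17.9 against 27.5 and 25.0 at 9 months. Neither difference passed (-0.34 ± 0.318, adjusted p 0.814 and -0.51 ± 0.200, adjusted p 0.0940). Exons of Ctsb on the opposite strand cover 26.8% of its exon length and strand use is not given, so its reads cannot be told from those of Ctsb there.

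Among the 8 genes from lanosterol to cholesterol, 3 were lower in 9-month CD11c+ cells and none higher. Sc5d (chr9:42251595-42264256), a sterol desaturase, had 32.9 and 32.2 scaled CPM in CD11c+ libraries, against 62.3 and 59.7 in CD11c- libraries. Replicates lay close together within each group, and Sc5d was lower by -0.91 ± 0.169 (adjusted p 0.00741). Its P5 values were 13, 14.4 and 15.4 scaled CPM in CD11c+ libraries, against 18.1, 18.6 and 14.7 in CD11c- libraries (-0.26 ± 0.250, adjusted p 0.815), with 1 CD11c- library inside the CD11c+ range.

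Msmo1 (chr8:64718139-64733792), a methylsterol oxidase and the third gene with the sterol element core, had 57.5 and 60.7 scaled CPM in 9-month CD11c+ libraries, against 96.3 and 94.6 in CD11c- libraries (-0.69 ± 0.155, adjusted p 0.0149). Here too the groups were apart, but the call was lost without CD11c+ replicate 1 (adjusted p 0.111). At P5 it had 23.6, 58.5 and 26.8 in CD11c+ libraries, against 25.2, 24.9 and 21.7 in CD11c- libraries, level but for replicate 2. Hsd17b7 (chr1:169949535-169969241), the keto-reductase of the same demethylation, had 4.67 and 4.91 scaled CPM in 9-month CD11c+ libraries, against 14.8 and 10 in CD11c- libraries (-1.38 ± 0.319, adjusted p 0.0168). Both of its CD11c+ values were below the CD11c- ones, and without CD11c+ replicate 1 it narrowly missed the threshold (adjusted p 0.0515). Levels at P5 were 6.11, 2.21 and 6.93 in CD11c+ libraries, against 5.17, 4.05 and 4 in CD11c- libraries, and the low value was again replicate 2, with 6 reads.

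The other 5 genes of this stretch did not pass at either age. Ebp had 39.9, 64.4 and 40.8 scaled CPM in P5 CD11c+ libraries, all above the 32.6 found in each P5 CD11c- library (0.56 ± 0.255, adjusted p 0.753, and 0.34 ± 0.132, adjusted p 0.151, without replicate 2). At 9 months it was level, at 70.9 and 76.4 in CD11c+ libraries, against 76.3 and 84.2 in CD11c- libraries. Cyp51, lanosterol demethylase, had 33.9 and 33.7 scaled CPM in 9-month CD11c+ libraries against 26.8 and 21.4 in CD11c- libraries (0.49 ± 0.202, adjusted p 0.11). At P5, with 21.5, 42.0 and 24.2 in CD11c+ libraries, against 22.4, 21.9 and 24.9 in CD11c- libraries, the groups were level but for replicate 2. Dhcr7, which forms cholesterol from its precursor 7-dehydrocholesterol, had 17.5 and 16.0 against 11.7 and 10.4 (0.60 ± 0.236, adjusted p 0.0959), and its P5 values overlapped, at 18.4 to 24.3 against 17.1 to 25.0. For Nsdhl and Tm7sf2, a sterol dehydrogenase and a sterol reductase, the groups overlapped at both ages. Thus Lss, Cyp51 and Dhcr7 lay above and Sc5d, Msmo1 and Hsd17b7 below in the same CD11c+ libraries, and the steps of the pathway did not share a direction under TMM scaling. Scaled to homeostatic microglia genes all 28 values were negative, as was the median of all genes (-1.39). Relative to that median Lss (1.30), Cyp51 (0.46) and Dhcr7 (0.57) lay above and Sc5d (-0.93), Msmo1 (-0.71) and Hsd17b7 (-1.40) below. Scaling whole libraries shifts all genes about alike, and subtracting the median undoes that shift. These values therefore nearly repeat those under TMM and are no second check of direction.

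Of the 3 genes that control or move sterols, Srebf2 passed. Srebf2 (chr15:82147266-82205376) had 54.6 and 57.6 scaled CPM in 9-month CD11c+ libraries, against 85.0 and 80.1 in CD11c- libraries (-0.56 ± 0.159, adjusted p 0.0352). The groups did not overlap, but the call was lost when any 1 of the 4 libraries was left out, at adjusted p of 0.0733 to 0.264. At P5 it had 74.1, 25.4 and 78.7 scaled CPM in CD11c+ libraries, against 33.6, 44.2 and 46.1 in CD11c- libraries. With all libraries the P5 difference did not pass (0.54 ± 0.428, adjusted p 0.805), and without replicate 2, the low one, Srebf2 was higher in CD11c+ cells by 0.92 ± 0.171 (adjusted p 0.0231).

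Stard4, a carrier of cholesterol between membranes, had 14.5, 29.5 and 15.5 scaled CPM in P5 CD11c+ libraries, all above 7.23, 7.03 and 11.7 in P5 CD11c- libraries. Its fold change of 1.19 ± 0.408 was the largest of the 28 at P5 and did not pass after adjustment (adjusted p 0.539, and 0.0923 without replicate 2). At 9 months the order was turned, with 6.90 and 4.65 in CD11c+ libraries below 8.71 and 12.8 in CD11c- libraries (-0.89 ± 0.352, adjusted p 0.0957). Insig1, which retains SREBPs in the endoplasmic reticulum, had 18.7 and 57.3 scaled CPM in 9-month CD11c+ libraries around the 28 and 43.1 of CD11c- libraries. Replicates of that gene differed so widely that its fold change of 0.10 ± 0.490 (adjusted p 0.901) became -0.90 (adjusted p 0.0367) without CD11c+ replicate 2.

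In the fatty acid arm Scd2 (chr19:44293676-44306864), a desaturase that makes oleate and its kin, had 57.9 and 48.6 scaled CPM in 9-month CD11c+ libraries, against 37.4 and 25.3 in CD11c- libraries. Both CD11c+ values were above, and Scd2 was higher by 0.76 ± 0.238 (adjusted p 0.0480), close to the threshold, but lower by -0.66 (adjusted p 0.0431), or 0.73 above the median of all genes, when scaled to homeostatic microglia genes. Without 9-month CD11c+ replicate 1 or CD11c- replicate 2 it did not pass (adjusted p 0.0927 and 0.0890). At P5 it had 404, 76.9 and 321 scaled CPM in CD11c+ libraries, against 456, 335 and 241 in CD11c- libraries, and the P5 groups overlapped. All but replicate 2 of those P5 values were several times the 9-month ones. Scd1, its close paralog, had 9 to 36 reads per library, and how reads shared by both were counted is not given in the sources used here.

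Srebf1, the SREBP1 gene, had 64.5 and 39.9 scaled CPM in 9-month CD11c+ libraries, above 36.6 and 28.5 in CD11c- libraries (0.68 ± 0.271, adjusted p 0.0988). Without CD11c+ replicate 2 its fold change was 1.02 (adjusted p 0.00288). At P5 it had 79.0, 41.2 and 77.5 in CD11c+ libraries, against 85.8, 75.5 and 64.2 in CD11c- libraries. Srebf1 and Srebf2 were thus on opposite sides of 0 at 9 months, Srebf1 without passing.

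The enzymes that feed and build the chain did not pass at either age. Acly had 205 and 136 scaled CPM in 9-month CD11c+ libraries against 137 and 113 in CD11c- libraries (0.45 ± 0.226, adjusted p 0.173). Its P5 levels were 163, 47.1 and 136 in CD11c+ libraries, against 101, 139 and 124 in CD11c- libraries, which overlapped, with replicate 2 low. Fasn, fatty acid synthase, had 11.1 and 15.5 against 9.20 and 9.33 (0.52 ± 0.280, adjusted p 0.200), and at P5 62.0, 24.3 and 49.7 against 44.5, 49.5 and 38.2, again with replicate 2 low. Acaca, the carboxylase that makes malonyl-CoA, overlapped between groups at 9 months, with 4.98 and 3.64 in CD11c+ libraries, against 8 and 4.77 in CD11c- libraries. Its P5 value of 63.0 in CD11c+ replicate 2, against 13.3 to 18.3 in the other 5 P5 libraries, gave a fold change of 0.98 ± 0.596 that became 0.03 without that library. Elovl6, an elongase, was low, at 0.871 and 0.929 in 9-month CD11c+ libraries and 3.24 and 1.48 in CD11c- libraries (-1.39 ± 0.648, adjusted p 0.148).

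The change of the CD11c difference with age was tested as the 9-month minus the P5 log2 fold change in a fit of all 10 libraries. By edgeR 0 of 28 passed, where 0.302% of 19555 genes passed as higher and 1.56% as lower. At an unadjusted p under 0.05 there were 3, all lower (Fdps, Msmo1 and Stard4), where 1318 of the 19555 genes were higher and 1833 lower. DESeq2 called 3 lower (Fdps -1.18, Pmvk -1.08 and Stard4 -2.10), where it called 3.86% of genes higher and 8.41% lower. Without P5 CD11c+ replicate 2, edgeR called 3 lower, of 28, and none higher (8.76% of genes higher, 10.3% lower). These were Srebf2 at -1.36 ± 0.249 (adjusted p 0.00462), Hsd17b7 at -1.84 ± 0.398 (adjusted p 0.0104) and Stard4 at -1.63 ± 0.467 (adjusted p 0.0344). For these genes the CD11c+ cells stood above CD11c- cells at P5 and below them at 9 months, except for the shallow library in Srebf2 and Hsd17b7. A change of the kit that affects the subsets unequally would enter this difference too and was not tested.

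Related pathway genes outside the 28 were read from 3 lists. Directions given for them are those under TMM scaling. Scaled to homeostatic microglia genes, 1 of 35 was called higher and 21 lower at 9 months, where 0.457% of all genes were called higher and 63% lower. On that scale Fads1 stayed higher (0.65), Acat1 was lower (-0.80), and Mbtps1 (-0.13), Lpin1 (0.26), Abca1 (0.07), Abcg1 (-0.33), Mylip (-0.41) and Lpcat3 (-0.41) did not pass. Of 10 other sterol pathway genes tested at 9 months, 2 were higher in CD11c+ cells and 1 lower, where 14.8% of all genes passed as higher and 18.2% as lower. Mbtps1, the site-1 protease that releases SREBPs, had 93.4 and 67.5 scaled CPM in CD11c+ libraries against 31.6 and 33.6 in CD11c- libraries (1.30 ± 0.210, adjusted p 0.00419). Lbr, a sterol reductase of the nuclear envelope that also shapes the nuclei of neutrophils, had 101 and 82.5 against 427 and 447 (-2.25 ± 0.164, adjusted p 0.000143). Acat1, a mitochondrial thiolase, was higher by 0.61 ± 0.17 (adjusted p 0.0322).

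Of 15 other fatty acid synthesis genes tested at 9 months, 5 were higher and 3 lower (14.8% and 18.2% of all genes). Fads1, the delta-5 desaturase, had 129 and 124 scaled CPM in CD11c+ libraries against 32.8 and 27.6 in CD11c- libraries (2.07 ± 0.173, adjusted p 0.000267). Lpin1, a phosphatidate phosphatase, was higher by 1.68 ± 0.182 (adjusted p 0.000797). Elovl7, an elongase, had 0.662 and 0.483 in CD11c+ libraries against 25.6 and 35.1 in CD11c- libraries (-5.71 ± 0.347, adjusted p 6.8e-05), and Tecr, a reductase of the elongation cycle, was lower by -1.38 ± 0.143 (adjusted p 0.000672).

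Liver X receptors are the sterol sensors that switch on cholesterol export. The genes of the receptors, Nr1h2 and Nr1h3, overlapped between the groups at 9 months. Nr1h2 had 75.7 and 59.9 scaled CPM in CD11c+ libraries against 63.3 and 56.1 in CD11c- libraries. Nr1h3 had 1.64 and 2.12 against 2.4 and 0.329. In the list of these receptors, sterol transport and esterification, 6 of 10 genes were higher in 9-month CD11c+ cells and 0 lower (14.8% and 18.2% of all genes), with a median of 0.83 against 0.02 over all genes. The exporter Abca1 had 200 and 224 scaled CPM in CD11c+ libraries against 69.2 and 82.7 in CD11c- libraries (1.48 ± 0.167, adjusted p 0.000949). Abcg1, a second exporter, was higher by 1.08 ± 0.158 (adjusted p 0.00276), Mylip, a ubiquitin ligase, by 1.01 ± 0.197 (adjusted p 0.00893), and Lpcat3, a phospholipid acyltransferase, by 1.01 ± 0.187 (adjusted p 0.00736). No gene of the 3 lists passed by edgeR at P5 or in the difference between ages with all libraries. At an unadjusted p under 0.05 there were 1 higher and 1 lower of 33 tested at P5, and 2 higher and 2 lower of 35 in the difference. All genes at that level were 668 higher and 409 lower of 15410 at P5, and 1318 and 1833 of 19555 in the difference. DESeq2 called 0 of 33 at P5 and 2 higher and 2 lower of 35 in the difference (3.86% and 8.41% of all genes).

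Markers of other cells moved with the 9-month contrast. A list of 13 genes of neutrophils and their precursors made up 0.138% to 0.222% of counts in 9-month CD11c+ libraries, against 13.5% to 18.6% in 9-month CD11c- libraries, and all 13 were lower in CD11c+ cells. The 6 monocyte genes summed to 239 to 317 CPM against 10600 to 13000, the 4 eosinophil genes to 0.128 to 2.35 CPM against 1130 to 1210, and the 8 genes of dividing cells to 232 to 247 CPM against 608 to 678, with 6 of 6, 4 of 4 and 7 of 8 lower. Most of the monocyte sum in CD11c- libraries was Chil3, at 8520 and 10600 CPM. Ccr2 had 87.7 and 80.3 CPM in CD11c+ libraries against 166 and 169 in CD11c- libraries. Eosinophil genes Epx, Prg3 and Ear6 were at 0 in CD11c+ replicate 2, and no neutrophil or monocyte gene was at 0 in any 9-month library. Conversely 15 of 15 homeostatic microglia genes were higher, at 5.74% to 6.33% of counts against 1.64% to 1.85%, and 10 of 11 genes of border-associated macrophages, at 0.196% to 0.209% against 0.0538% to 0.0636%. Their part in the 7 calls, and in the calls of the related lists, was not tested.

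**Figure D4:**
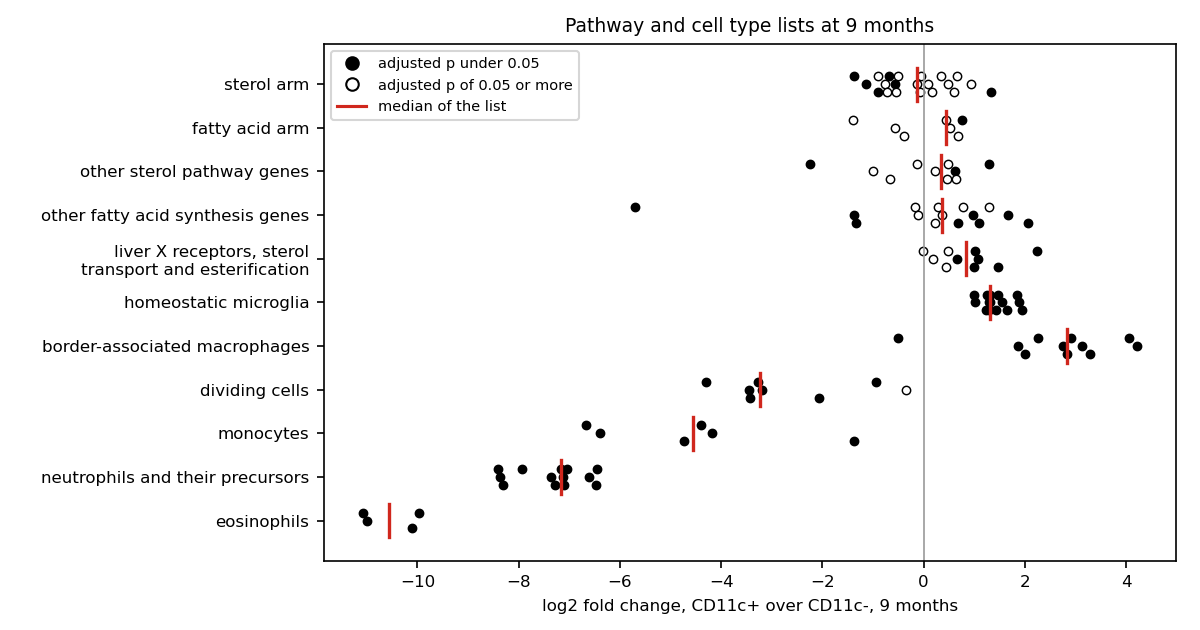
Log2 fold changes of CD11c+ over CD11c- cells at 9 months for the genes of both arms, of the 3 related lists and of the cell type lists, with 1 point per gene, filled where the adjusted p is under 0.05 (edgeR), and a red line at the median of each list. The arms lie around 0, with medians of -0.12 and 0.45, while neutrophil genes centre on -7.16 and homeostatic microglia genes on 1.32.

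The P5 contrast went with other markers. Border-associated macrophage genes made up 1.36% to 1.77% of counts in CD11c+ libraries against 0.0815% to 0.166% in CD11c- libraries, with 6 of 11 higher, and 13 mitochondrially encoded genes 0.771% to 2.79% against 7.15% to 28%, of which 0 passed with all libraries and 13 were lower without replicate 2. Neutrophil genes made up 0.0187% to 0.0228% against 0.0653% to 0.328%, with Elane at 0 in all 3 CD11c+ libraries. The list of the oligodendrocyte lineage summed to 156, 253 and 169 CPM in P5 CD11c+ libraries, against 113, 125 and 212 CPM in P5 CD11c- libraries. Astrocyte genes summed to 24.4, 129 and 28.5 CPM against 42.8, 29.9 and 37.8 CPM, and neuron genes to 7.11, 112 and 8.71 CPM against 13.9, 14.7 and 20.9 CPM. Replicate 2 held the highest CD11c+ sum in each, and for astrocyte and neuron genes the other CD11c+ libraries lay below every CD11c- library. At 9 months the 3 sums were at most 289, 204 and 4.83 CPM in CD11c+ libraries, against 268, 52.6 and 3.27 CPM in CD11c- libraries. Most of the astrocyte sum was Slc1a3, at 190 and 180 CPM in CD11c+ libraries against 44.5 and 44.3 in CD11c- libraries. Gfap, Aqp4 and Slc1a2 were at most 1.18 CPM in any 9-month library. In the oligodendrocyte list Mog, Olig1, Olig2, Sox10 and Cldn11 were at most 0.0904 CPM there. The part of all these in the P5 values of the 28 genes was not tested.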

How the data were processed

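RNA was sequenced from 10 libraries of mouse cells sorted as CD11c+ and CD11c- microglia. The values the authors deposited are raw counts of reads, whole numbers, for 49315 genes. Per the submitters' processing notes the tools were Trimmomatic 0.36, STAR 2.5.2b and Subread 1.5.2, while build, strand setting and multiply mapped reads are not given in the sources used here. Symbols came from GENCODE M21 (GRCm38), whose coordinates equal the deposited ones for 91.37% of its 49056 shared identifiers. Coordinates of genes are the deposited ones.

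Each age was fitted alone with edgeR 4.0.16 (R 4.3.3): filterByExpr, TMM scaling, quasi-likelihood F-test, Benjamini-Hochberg adjustment over all genes tested, threshold 0.05. Every adjusted p is from this test unless DESeq2 1.42.0 is named. The change with age was an interaction contrast over all libraries. Each SE is the fold change over the root of its F. Tests were checked on simulated counts with the same spread in each comparison, smaller than that of the P5 fit and the fit of all libraries. That check does not show what the P5 and interaction tests could detect. The 28 genes and all lists were chosen with earlier results of these data known. All 28 are named, and of each related list up to 4 genes past the threshold with the smallest p. Alternatives covered DESeq2, RLE scaling, no filter, replicate numbers as a block, a joint fit, scaling to homeostatic microglia genes and leaving out each library. Counts per library ranged from 2619610 to 25483573. Replicate numbers did not pair the libraries.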

Additional observations from a re-analysis of the deposited data

How the results depend on the processing

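Of the P5 values of single genes, 5 of 420 under other settings crossed the threshold, all upward and all without CD11c+ replicate 2. At 9 months 232 of 280 stayed on their side, 22 newly passed, 17 no longer passed and 9 reversed. Fold changes that passed under neither setting changed sign in 117 of 982 cases. In the difference between ages 386 of 392 stayed and 6 newly passed.

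Under the replicate block the P5 sterol median was 0.09, against -0.09 over all genes. The labels give the groups the same replicate numbers, but same-numbered deviations correlated at 0.457, 0.095 and -0.403 at P5 and at 0.086 at 9 months, so the numbers were not taken as pairs. With the block 0 of 28 genes passed at P5, 8 at 9 months and 0 in the difference, against 0, 7 and 0 without it. Over all genes the block gave 0 calls at P5, 5436 of 15740 at 9 months and 0 in the difference, against 46, 5202 and 364. Scaling to homeostatic microglia genes gave P5 medians of 0.68 (sterol) and 0.47 (fatty acid), against 0.53 over all genes. At 9 months this scaling gave 22 calls and medians of -1.53 and -0.98, against -1.39 over all genes. It turned 12 of the 28 values from positive to negative at 9 months. Those that passed under TMM or homeostatic scaling were Sqle (-1.24), Lss (-0.09), Cyp51 (-0.93), Dhcr7 (-0.82), Srebf1 (-0.75), Scd2 (-0.66), Fasn (-0.88) and Acly (-0.98). The shift was shared with the median of all genes (-1.39). Relative to that median all 8 were positive, but subtracting it undoes the scaling, so this is no second check of direction. Mvk (-0.48), Insig1 (-1.27), Acat2 (-0.75) and Tm7sf2 (-1.09) changed sign without passing under either scaling. The fit of all 10 libraries gave 0 calls at 9 months, with medians of 0.00 and 0.58, against 0.13 over all genes. Adjusted p there were 0.0765 for Fdps, 0.15 for Sc5d and 0.273 for Lss. DESeq2 gave 3 calls in the difference between ages, against 0.

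Leaving out 1 library at a time gave 0 to 1 calls at P5, 3 to 9 at 9 months and 0 to 3 in the difference. Medians ranged from 0.00 to 0.23 (P5 sterol), -0.29 to 0.15 (P5 fatty acid), -0.44 to 0.02 (9-month sterol) and 0.18 to 0.52 (9-month fatty acid). Only 3 genes passed at 9 months without CD11c+ replicate 1, namely Fdps, Sc5d and Lss, which passed without any other library too. Msmo1 and Hsd17b7 lost their call without that library (adjusted p 0.111 and 0.0515). Insig1 ranged from -0.90, without CD11c+ replicate 2, to 0.74, without replicate 1. Scd2 also lost its call under RLE scaling (adjusted p 0.0525), and Srebf2 with no filter (0.0760). Chosen after seeing the data, P5 without CD11c+ replicate 2 gave 1 call with DESeq2, 1 with RLE scaling and 2 with homeostatic scaling (Srebf2 and Lss), with a sterol median of 0.52 in the last. Over all genes, the P5 count of calls was 46 and rose to 555 with DESeq2, 100 with homeostatic scaling, 138 in the fit of all libraries and 1501 without that replicate, and was 0 under the block. At 9 months it was 5202, against 1158 in the fit of all libraries and 9988 with homeostatic scaling. The difference had 364, against 2400 with DESeq2, 623 with RLE scaling, 693 with no filter, 0 under the block and 3496 without P5 CD11c+ replicate 2. The causes were not tested. In P5 CD11c+ replicate 2, 6 and 7 reads carried Hsd17b7 and Lss, which limits their precision there, and 9 months had 2 libraries a group.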
